A study of Homo sapiens with 8 samples.

Results

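The genes described here are the machinery that cuts the Notch receptor, carries its signal into transcription and ends it. They were chosen by symbol: ADAM10, ADAM17, PSEN2, NCSTN, APH1A, RBPJ, MAML1, NUMB and FBXW7. Of these 9 genes, 8 had a row of their own in both deposited tables, out of 42162 gene rows kept for the NOTCH1-labelled line and 42132 for MCF10A. MAML1 appeared only on a row joined with its neighbour LTC4S, so its values are given apart and enter no count. All 8 genes lay above 10 FPKM in every group, so a filter on low values removed none of them.

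RNA was sequenced from 8 samples in 4 groups of 2. The groups were NOTCH1-labelled cells with 30 µM ginkgolic acid, NOTCH1-labelled cells with DMSO, MCF10A cells with 30 µM ginkgolic acid and MCF10A cells with DMSO, each treated for 3 days. MCF10A is an immortalized human breast epithelial line that forms no tumours, and per the labels the NOTCH1 cells are MCF10A cells that overexpress the receptor's intracellular domain. Ginkgolic acid, written GA below, is an inhibitor of SUMO conjugation, and DMSO is its solvent. All 4 groups grew in the same medium with horse serum, insulin, cholera toxin, epidermal growth factor and hydrocortisone. The vector and promoter that drive the domain, and whether the line is 1 clone, are also not given in the sources used here, and the labels do not say whether samples of a group were separate cultures. Per the deposited tables each group has a single FPKM value per gene (fragments scaled by transcript length and by mapped fragments). Values therefore carry no replicate error, and no difference was tested. Depth is unknown for the same reason. "Higher" and "lower" compare the group values, and a gene counted as called when it was at least 2-fold apart, a log2 ratio of at least 1 in either direction.

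Notch signalling starts when a ligand on a neighbouring cell pulls on the receptor and exposes a site for the membrane proteases ADAM10 and ADAM17. Gamma-secretase, a complex of a presenilin, nicastrin, an APH1 protein and PEN2, then cuts the remaining stub inside the membrane and frees the intracellular domain. That domain enters the nucleus and forms a complex with the DNA-binding protein RBPJ and a Mastermind co-activator, which turns RBPJ from a repressor into an activator. NUMB, an endocytic adaptor, holds the pathway back at the membrane, and FBXW7, the substrate receptor of a ubiquitin ligase, marks the phosphorylated domain for degradation. In mammary epithelium the pathway is known for its part in luminal cell fate. Cells that carry the intracellular domain as a transgene do not need the protease steps for that protein.

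Upstream sequences are shown for 3 patterns of response: PSEN2, which was lower in both lines, NUMB, which was higher in both, and FBXW7, which was almost level in MCF10A. All 9 genes had an entry in the RefSeq promoter table (GRCh38.p14, a later build than that of the deposited tables). For each of the 3, the stretch printed is the longest run among the 250 bases before the start that lies outside exons of the GENCODE release 29 basic set. Capitals mark CCAAT and the GC box GGGCGG, each searched on both strands, and the RBPJ core TGGGAA was searched in the same way. For FBXW7, which has 4 entries in the table, the first was used.
PSEN2, chr1:226870366-226870562, plus strand: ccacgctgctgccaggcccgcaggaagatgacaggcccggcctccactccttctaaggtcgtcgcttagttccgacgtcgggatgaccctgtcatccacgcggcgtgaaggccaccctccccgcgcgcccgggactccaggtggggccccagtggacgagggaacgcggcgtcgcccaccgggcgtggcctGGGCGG
NUMB, chr14:73458618-73458796, minus strand: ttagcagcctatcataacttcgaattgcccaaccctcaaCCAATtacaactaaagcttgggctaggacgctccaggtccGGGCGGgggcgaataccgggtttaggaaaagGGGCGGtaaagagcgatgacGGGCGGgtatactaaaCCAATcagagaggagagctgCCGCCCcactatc
FBXW7, chr4:152536093-152536263, minus strand: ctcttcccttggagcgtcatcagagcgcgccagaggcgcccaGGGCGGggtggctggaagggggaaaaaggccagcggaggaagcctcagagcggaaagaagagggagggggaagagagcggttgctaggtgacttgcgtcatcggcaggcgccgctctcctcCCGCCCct

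The NUMB stretch held 2 CCAAT matches and 4 GC boxes. Among all 35116 promoter entries, 23.7% held CCAAT and 31.1% a GC box in the stretch at the same distance from the start. The PSEN2 stretch held 1 GC box and no CCAAT, where 34.3% of all entries held a GC box and 26.9% CCAAT. In the FBXW7 stretch there were 2 GC boxes and no CCAAT, where 38.4% of entries held a GC box and 25.4% CCAAT. None of the 3 stretches held TGGGAA, which 17.2% of entries held in the stretch of PSEN2, 15.8% in that of NUMB and 14.7% in that of FBXW7. These matches describe letters only.

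Over all genes at the level of the 8, values with GA were on the whole above those with DMSO in NOTCH1-labelled cells and below them in MCF10A. Among genes at 10 FPKM or more in both groups of a line, the median log2 ratio was 0.25 over 5750 genes in NOTCH1-labelled cells and −0.15 over 5309 genes in MCF10A. The epithelial markers EPCAM, CDH1, KRT8, KRT18 and KRT19 summed to 853 FPKM with GA and 346 with DMSO in NOTCH1-labelled cells, and to 499 with GA and 323 with DMSO in MCF10A. The higher sums came from EPCAM, KRT8 and KRT18. CDH1 was lower in MCF10A, at 39.2 with GA and 96.6 with DMSO, as was KRT19 in NOTCH1-labelled cells, at 0.325 with GA and 2.42 with DMSO. Of 6 basal markers, the 4 with a row in both tables, KRT14, TP63, ITGA6 and ITGB4, summed to 221 with GA and 190 with DMSO in NOTCH1-labelled cells, and to 181 with GA and 265 with DMSO in MCF10A, so markers of the labelled cell type were present in every group. KRT5, used in the NOTCH1 table only and not in these sums, was more abundant and lower with GA, at 614 FPKM against 990.2 with DMSO. The 6 fibroblast markers summed to 43.1 FPKM with GA and 73.1 with DMSO in NOTCH1-labelled cells, mostly through DCN at 31.8 with GA and 63.4 with DMSO, and to 23.1 with GA and 30.7 with DMSO in MCF10A. The 3 endothelial markers with a row summed to between 2.75 and 10.7 FPKM in the 4 groups and the 5 leukocyte markers to between 11.0 and 16.6, with only TYROBP listed at 0, in NOTCH1-labelled cells with GA. The part of these markers in the results below was not tested. NOTCH1 itself was at 12.4 FPKM with GA and 5.03 with DMSO in NOTCH1-labelled cells, and at 6.18 with GA and 11.4 with DMSO in MCF10A, so the DMSO values go against the label. The value covers the whole gene and does not single out the intracellular domain. Every direction drawn between the lines rests on that label.

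**Figure D1:**
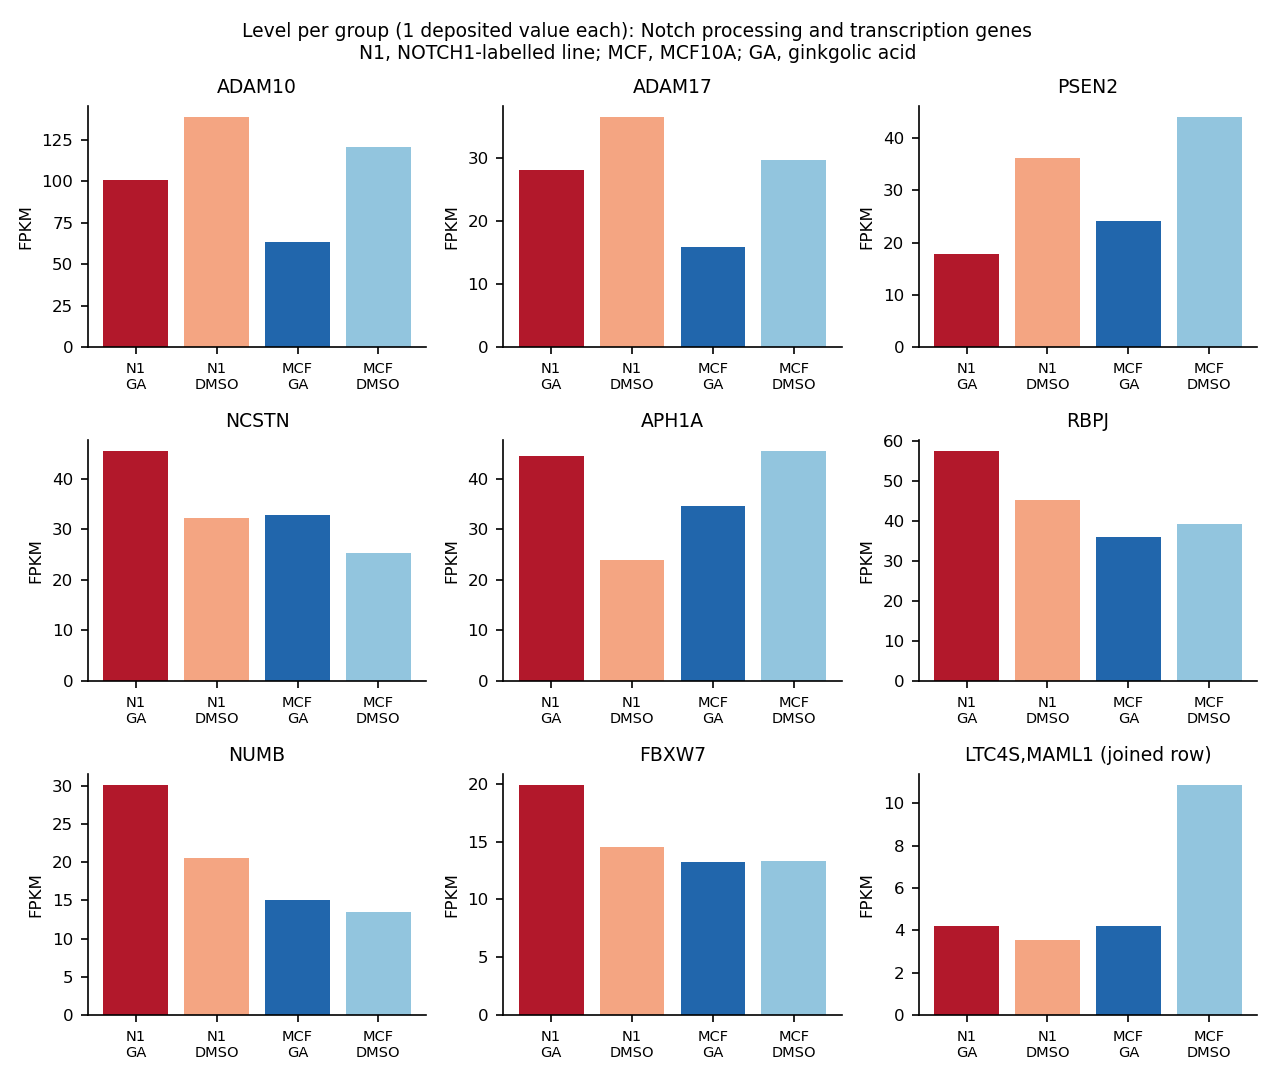
Deposited FPKM (vertical axes, each from 0) of the 8 genes and of the joined row of LTC4S and MAML1 in NOTCH1-labelled (N1) and MCF10A (MCF) cells with ginkgolic acid (GA) or DMSO; each bar is 1 value with no replicate error. ADAM10, ADAM17 and PSEN2 were lower with ginkgolic acid in both lines, NCSTN and NUMB higher in both, and APH1A went opposite ways.

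The proteases of the first cut were lower with GA in both lines, by less than 2-fold. ADAM10, the main ligand-dependent sheddase of Notch (chromosome 15, locus 58887402 to 59042177, hg19), was at 101 FPKM with GA and 139 with DMSO in NOTCH1-labelled cells, and at 63.6 with GA and 121 with DMSO in MCF10A. Its log2 ratio was −0.46 in NOTCH1-labelled cells and −0.92 in MCF10A. ADAM17, which sheds TNF and EGF receptor ligands and can cut Notch (chromosome 2, 9613786 to 9695921), was at 28.0 FPKM with GA and 36.4 with DMSO in NOTCH1-labelled cells, and at 15.9 with GA and 29.7 with DMSO in MCF10A. The log2 ratio was −0.38 in NOTCH1-labelled cells and −0.90 in MCF10A. In bulk RNA, fewer cells of a type and less RNA per cell cannot be told apart.

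Both proteases were thus lower in each line and kept nearly the same ratio to each other. ADAM10 was at 3.60 times the FPKM of ADAM17 with GA and 3.81 times with DMSO in NOTCH1-labelled cells, and at 4.01 times with GA and 4.07 times with DMSO in MCF10A. Compared with genes of at least 10 FPKM, 14.2% had a lower ratio than ADAM10 in NOTCH1-labelled cells and 11.6% in MCF10A. For ADAM17 the share was 16.8% in NOTCH1-labelled cells and 12.2% in MCF10A, so both genes lay in the lower part of the range in each line. ADAM17 shares its locus with IAH1, whose values went the other way, at 142 FPKM with GA and 67.1 with DMSO in NOTCH1-labelled cells, and 140 with GA and 81.1 with DMSO in MCF10A. The ADAM10 locus also carries a snoU13 row, at 158 FPKM with GA and 47.3 with DMSO in NOTCH1-labelled cells. In MCF10A that row was at 94.2 with GA and listed at 0 with DMSO. Another snoU13 row, at the ADAM17 locus, was listed at 0 in every group. Repeated symbols such as this were left out of the shares over other genes, and the direction of this row is not read.

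PSEN2, a gene of gamma-secretase, was the only one of the 8 genes that was called. PSEN2, a catalytic presenilin (chromosome 1, 227057884 to 227083877 in the NOTCH1 table), was at 17.7 FPKM with GA and 36.2 with DMSO in NOTCH1-labelled cells, a log2 ratio of −1.03. In MCF10A it was at 24.1 FPKM with GA and 44.1 with DMSO, a log2 ratio of −0.87 that stayed inside 2-fold. Only 3.93% of genes with at least 10 FPKM had a lower ratio than PSEN2 in NOTCH1-labelled cells, and 13.2% in MCF10A. The NOTCH1-labelled value lay so near the threshold that a pseudocount of 1 FPKM brought it to −0.99, which is not called.

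NCSTN, which encodes nicastrin, the subunit that admits the substrate, was higher with GA in both lines. It was at 45.5 FPKM with GA and 32.2 with DMSO in NOTCH1-labelled cells, and at 32.8 with GA and 25.4 with DMSO in MCF10A. The log2 ratio was 0.50 in NOTCH1-labelled cells and 0.37 in MCF10A. Its row covers chromosome 1 from 160259062 to 160328742, the same start and end as the row of COPA, a coatomer subunit gene. COPA was at 114 FPKM with GA and 74.3 with DMSO in NOTCH1-labelled cells, and 88.5 with GA and 62.8 with DMSO in MCF10A, with log2 ratios of 0.62 in NOTCH1-labelled cells and 0.49 in MCF10A that resemble those of NCSTN. A Y_RNA row on the same locus was at 293 FPKM with GA and listed at 0 with DMSO in NOTCH1-labelled cells, and at 238 with GA and 34.5 with DMSO in MCF10A. In the RefSeq table (GRCh38.p14) the starts of the genes are 133 bases apart, with NCSTN on the plus strand and COPA on the minus strand. Whether fragments were assigned by strand is not given in the sources used here, and the part of COPA in the values of NCSTN was not tested.

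APH1A, the scaffold subunit (chromosome 1, 150237678 to 150253327 in the NOTCH1 table), went opposite ways. In NOTCH1-labelled cells it was at 44.5 FPKM with GA and 23.9 with DMSO, a ratio of 1.87, and in MCF10A it was at 34.6 with GA and 45.4 with DMSO, a ratio of 0.761. On the log2 scale the ratio was 0.90 in NOTCH1-labelled cells and −0.39 in MCF10A. With DMSO the gene was lower in NOTCH1-labelled cells than in MCF10A, and with GA it was higher, by 0.37 on the log2 scale. Levels across the separately normalized tables carry an unknown factor, and with the median of genes at 10 FPKM or more removed the second value turned to −0.044. The gene of the alternative scaffold, APH1B, was at 9.29 FPKM with GA and 8.02 with DMSO in NOTCH1-labelled cells, and 7.60 with GA and 16.9 with DMSO in MCF10A. PSENEN, which encodes PEN2, was at 19.6 FPKM with GA and 12.8 with DMSO in NOTCH1-labelled cells, and 12.2 with GA and 24.6 with DMSO in MCF10A. Like APH1A, APH1B and PSENEN had positive log2 ratios in NOTCH1-labelled cells, 0.21 for APH1B and 0.62 for PSENEN. In MCF10A the ratios were negative, −1.15 for APH1B and −1.01 for PSENEN, so both were called lower there. In that line 15.2% of all genes were called lower, and 9.89% of those at 10 FPKM or more in both groups. Opposite signs in the lines were found in 42.2% of genes at 10 FPKM or more in all 4 groups.

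**Figure D2:**
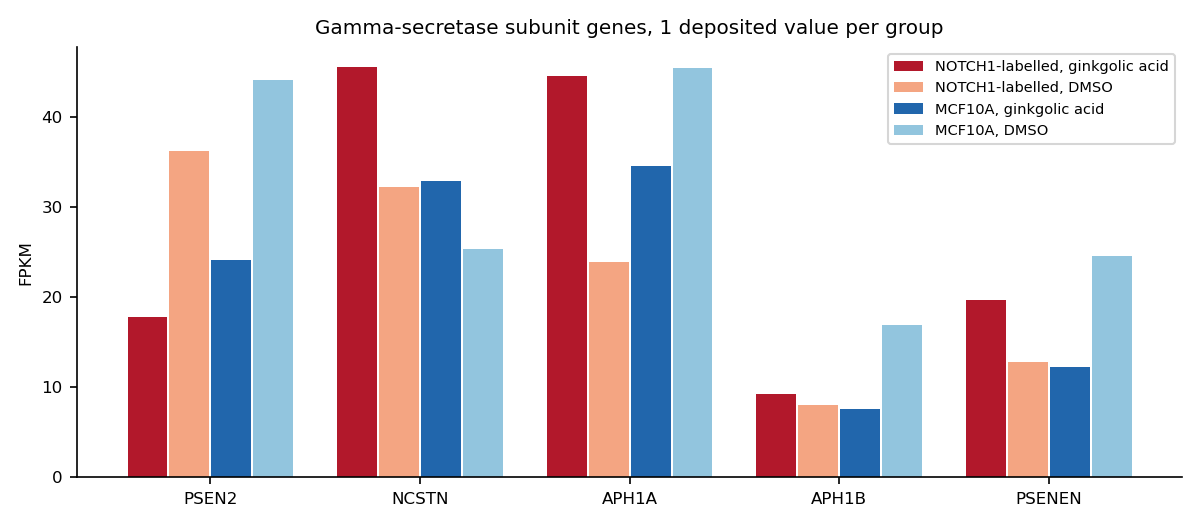
Deposited FPKM (vertical axis, from 0) of 5 gamma-secretase subunit genes in the 4 groups; each bar is 1 value with no replicate error. Of these 5 genes only NCSTN was higher with ginkgolic acid in MCF10A, and only PSEN2 was lower in NOTCH1-labelled cells.

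Of the members in the nuclear complex, RBPJ had small ratios and MAML1 could not be read alone. RBPJ (chromosome 4, 26165076 to 26436541) was at 57.6 FPKM with GA and 45.2 with DMSO in NOTCH1-labelled cells, and at 36.1 with GA and 39.3 with DMSO in MCF10A. Its log2 ratios, 0.35 in NOTCH1-labelled cells and −0.12 in MCF10A, lay near the middle of genes with at least 10 FPKM, of which 55.8% had a lower ratio in NOTCH1-labelled cells and 51.7% in MCF10A. In MCF10A the sign of RBPJ turned, to 0.023, once the median of those genes was removed. The joined row of LTC4S and MAML1 (chromosome 5, 179159850 to 179223648) was at 4.21 FPKM with GA and 3.55 with DMSO in NOTCH1-labelled cells, a log2 ratio of 0.25. In MCF10A it was at 4.20 FPKM with GA and 10.9 with DMSO, a log2 ratio of −1.37. LTC4S encodes leukotriene C4 synthase, and the row does not tell its share from that of MAML1, a Mastermind co-activator.

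NUMB and FBXW7, which limit the signal at the membrane and in the nucleus, were both higher with GA in NOTCH1-labelled cells, by less than 2-fold. NUMB (chromosome 14, 73741814 to 73943880 in the NOTCH1 table) was at 30.1 FPKM with GA and 20.5 with DMSO in NOTCH1-labelled cells, and at 15.0 with GA and 13.4 with DMSO in MCF10A. The log2 ratio was 0.55 in NOTCH1-labelled cells and 0.16 in MCF10A. FBXW7 (chromosome 4, 153242365 to 153456172 in the NOTCH1 table) was at 19.9 FPKM with GA and 14.5 with DMSO in NOTCH1-labelled cells, and at 13.2 with GA and 13.3 with DMSO in MCF10A. The log2 ratio was 0.46 in NOTCH1-labelled cells and −0.01 in MCF10A. FBXW7 holds the microRNA gene MIR3140, which was listed at 0 in all 4 groups. In MCF10A the sign of FBXW7 turned as well, to 0.14, with the median of genes at 10 FPKM or more removed.

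In all, a 2-fold higher value with GA was found for 0 of the 8 genes in NOTCH1-labelled cells, where 18.9% of 19524 genes had one. A 2-fold lower value was found for 1, PSEN2, where 18.9% of genes had one. In MCF10A 0 were higher, where 24.4% of 17666 genes were, and 0 were lower, where 15.2% were. Among genes at 10 FPKM or more in both groups, the level of the 8 genes, 13.8% were higher and 4.28% lower in NOTCH1-labelled cells, and 6.42% were higher and 9.89% lower in MCF10A. The median log2 ratio of the 8 genes was 0.40 in NOTCH1-labelled cells and −0.26 in MCF10A, beside 0.25 in NOTCH1-labelled cells and −0.15 in MCF10A for genes of that level. Above 0 were 5 of the 8 genes in NOTCH1-labelled cells, where 65.9% of genes of that level and 52.3% of all 19524 were. In MCF10A 2 of the 8 were above 0, where 39.9% of genes of that level and 52.3% of all 17666 were. Counts and medians of the 8 genes thus lay near those of other genes at their level.

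**Figure D3:**
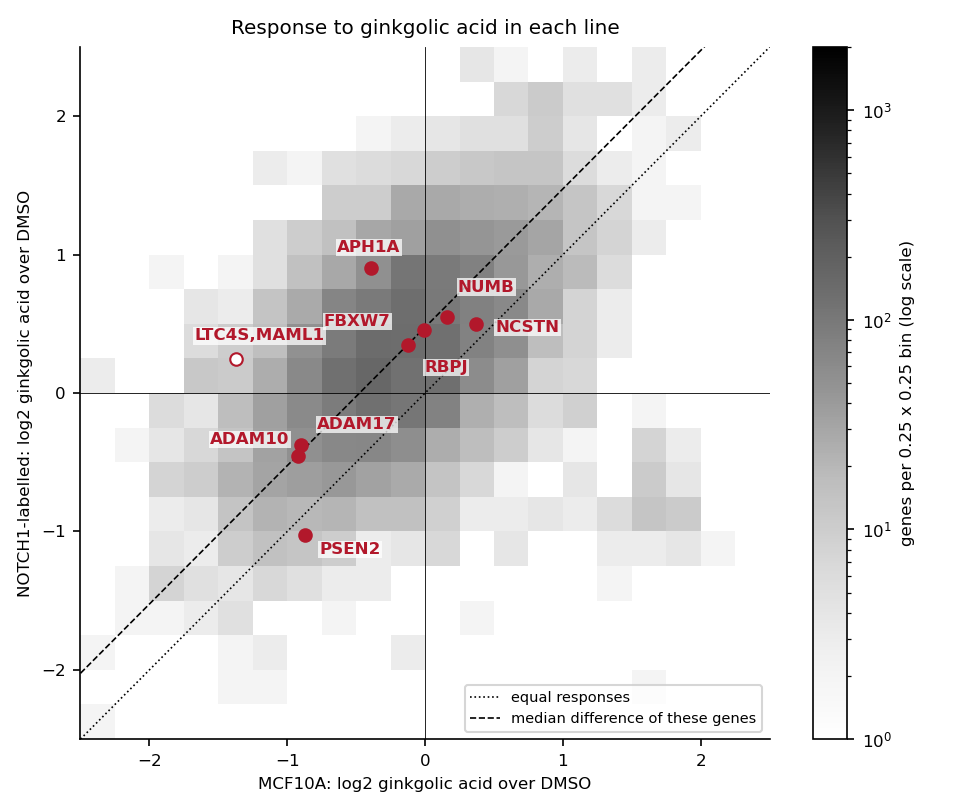
Log2 ratio of ginkgolic acid over DMSO in MCF10A (horizontal) and in NOTCH1-labelled cells (vertical) for the 8 genes (filled points) and the joined row (open point), over binned counts of the 4906 genes at 10 FPKM or more in all 4 groups (grey, log scale; axes end at 2.5 in each direction). The genes ADAM10, ADAM17, RBPJ, FBXW7 and NUMB lie along the dashed line, the median difference of 0.48, while APH1A lies above it and NCSTN and PSEN2 below it.

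Between the lines, the response of most of the 8 genes differed by about as much as that of the median gene of their level. The log2 ratio in NOTCH1-labelled cells minus that in MCF10A had a median of 0.47 over the 8 genes and 0.48 over 4906 genes that reached 10 FPKM in each of the 4 groups. It was above 0 for 7 of the 8 genes, beside 76.4% of the 4906 and 57.3% of all 15498 genes compared. ADAM17, at 0.53, RBPJ, at 0.47, ADAM10, at 0.47, FBXW7, at 0.47, and NUMB, at 0.39, all lay within 0.1 of that median. Lower positions were held by NCSTN, at 0.13, and by PSEN2, at −0.16, with 29.5% and 16.7% of the 4906 genes below them. With the median of the 4906 removed, ADAM10, RBPJ, NUMB and FBXW7 lay between −0.085 and −0.0026, and NCSTN at −0.35, so their signs depend on that scaling.

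APH1A, at 1.29, had the largest difference of the 8 genes and was the only one past 1. That size was reached by 21.6% of all 15498 genes compared and by 20.4% of the 4906. With the median of the 4906 genes removed, APH1A was at 0.82 and no gene of the 8 was past 1. Past −1 lay 0 of the 8 genes, beside 22.5% of the 15498 and 3.75% of the 4906. The joined row of LTC4S and MAML1 had a difference of 1.62. None of these differences was tested, since there is no replicate error.

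**Figure D4:**
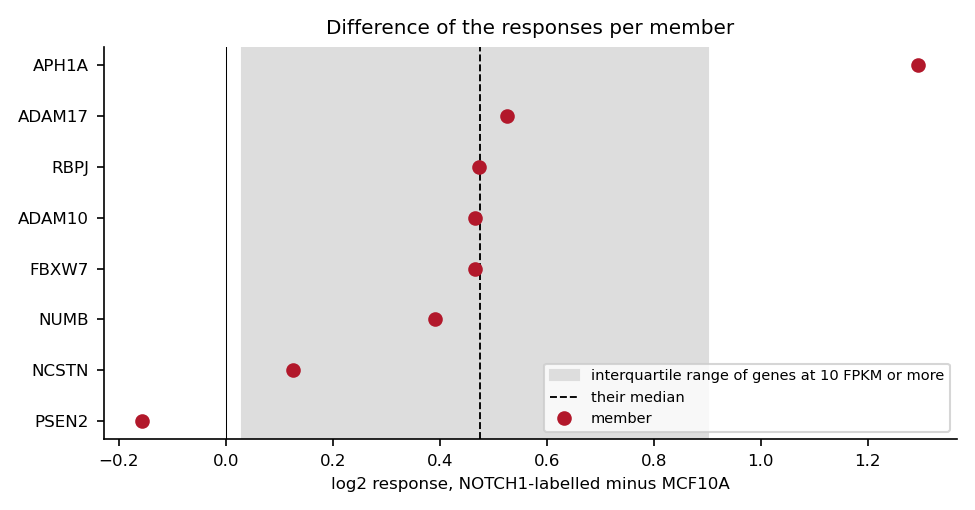
Log2 response in NOTCH1-labelled cells minus that in MCF10A (horizontal axis) for each of the 8 genes (points), with the median (dashed line) and interquartile range (grey, 0.03 to 0.90) of the 4906 genes at 10 FPKM or more in all 4 groups. Outside that range lie PSEN2, below it, and APH1A, above it.

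Set side by side across the separately normalized tables, 7 of the 8 genes had higher values in NOTCH1-labelled cells than in MCF10A with GA, where 78.6% of the 4906 genes and 62.3% of all genes did. With DMSO 6 of 8 did, where 47.1% of the 4906 and 59.1% of all genes did. NUMB had a log2 ratio of 1.00 with GA, just past 2-fold, as 20.0% of 19101 genes and 11.6% of the 4906 were. It was short of 2-fold, at 0.59, when the median of the 4906 genes was removed. None of the 8 was at least 2-fold lower with GA, where 13.4% of all genes and 1.24% of the 4906 were. With DMSO 0 of the 8 were at least 2-fold higher, where 26.0% of 18067 genes and 3.93% of the 4906 were. None was at least 2-fold lower with DMSO, where 10.2% of all genes and 5.30% of the 4906 were. APH1A was nearest, at −0.93, and the other values with DMSO ran from −0.28 for PSEN2 to 0.61 for NUMB.

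Within a group, levels per transcript length can be ordered. ADAM10 was the highest of the 8 genes in every group, between 63.6 and 139 FPKM. FBXW7 was the lowest with DMSO in NOTCH1-labelled cells and in both MCF10A groups, and PSEN2 was the lowest in NOTCH1-labelled cells with GA, at 17.7 FPKM beside 19.9 for FBXW7. With DMSO the highest was 9.56 times the lowest in NOTCH1-labelled cells and 9.07 times in MCF10A. With GA it was 5.69 times in NOTCH1-labelled cells and 4.81 times in MCF10A. Without replicates it cannot be said which neighbours in these orders differ beyond their spread.

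Other genes of the pathway were taken from 7 lists, of which 59 genes in NOTCH1-labelled cells and 60 in MCF10A reached 1 FPKM with a ratio. With GA, 8 of the 59 were at least 2-fold higher and 5 lower in NOTCH1-labelled cells, with a median of 0.39, where 18.9% of all genes were higher and 18.9% lower. In MCF10A 6 of the 60 were higher and 13 lower, with a median of −0.33, where 24.4% of all genes were higher and 15.2% lower. At 10 FPKM or more in both groups, 13.8% of genes were higher and 4.28% lower in NOTCH1-labelled cells. In MCF10A 6.42% of genes at that level were higher and 9.89% lower. The counts of each list below stand beside these same shares, and with so few genes per list none is read as particular to it. Over all genes that reached 1 FPKM the medians were 0.06 in NOTCH1-labelled cells and 0.07 in MCF10A. For genes at 1 FPKM or more in both groups they were 0.14 in NOTCH1-labelled cells and −0.11 in MCF10A. At 10 FPKM or more in both groups they were 0.25 in NOTCH1-labelled cells and −0.15 in MCF10A. The difference of the responses was above 0 for 47 of 59 genes, beside 57.3% of all 15498 genes, and 76.4% of the 4906 at 10 FPKM or more. Its median was 0.57, beside 0.22 over all genes, 0.40 over genes at 1 FPKM or more in all 4 groups and 0.48 over the 4906, and it was 0.17 with the 0.40 removed. It was past 1 for 17 of the 59 genes, where 21.6% of all genes and 20.4% of the 4906 were. It was past −1 for 2, where 22.5% of all genes and 3.75% of the 4906 were. With the 0.40 removed, 9 were past 1 and 8 past −1.

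Genes of receptor maturation, most of which glycosylate Notch, included 2 of 7 at least 2-fold higher and 2 lower in NOTCH1-labelled cells, and 0 higher and 5 lower in MCF10A. POGLUT1, which adds glucose to EGF repeats, was at 7.17 FPKM with GA and 16.8 with DMSO in NOTCH1-labelled cells, and at 4.27 with GA and 11.4 with DMSO in MCF10A. LFNG, a Fringe glycosyltransferase, was at 0.297 FPKM with GA and 1.34 with DMSO in NOTCH1-labelled cells, and 0.237 with GA and 1.74 with DMSO in MCF10A, and so lower in both lines at a low level. RFNG, another Fringe gene that went opposite ways in the lines, was at 11.2 FPKM with GA and 3.17 with DMSO in NOTCH1-labelled cells, and 5.01 with GA and 7.47 with DMSO in MCF10A. POFUT1, the fucosyltransferase of Notch, was at 6365 FPKM with GA and 16.8 with DMSO in NOTCH1-labelled cells. In MCF10A it was at 11.4 FPKM with GA and 28.8 with DMSO, and so more than 2-fold lower. POFUT1 holds the microRNA gene MIR1825, whose part was not tested. ADAM10, NOTCH1, NOTCH3, LFNG, MAML2, MAML3, KAT2B, CTBP2 and MED13 likewise hold small RNA genes in GENCODE.

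Regulators of the sheddases included 2 of 7 at least 2-fold higher and 0 lower in NOTCH1-labelled cells, and 1 higher and 3 lower in MCF10A. TSPAN5 and TSPAN14 encode tetraspanins that carry ADAM10 to the cell surface. TSPAN5 was at 12.6 FPKM with GA and 6.09 with DMSO in NOTCH1-labelled cells, and at 4.40 with GA and 2.15 with DMSO in MCF10A, higher in both. TSPAN14 was at 10.7 FPKM with GA and 4.22 with DMSO in NOTCH1-labelled cells, and at 3.19 with GA and 7.50 with DMSO in MCF10A, and so on opposite sides in the lines. RHBDF2, which encodes a rhomboid-like partner that helps ADAM17 mature, was at 1.98 FPKM with GA and 1.75 with DMSO in NOTCH1-labelled cells, and at 0.658 with GA and 2.82 with DMSO in MCF10A. TSPAN17, another ADAM10 partner, was at 6.0 FPKM with GA and 7.90 with DMSO in NOTCH1-labelled cells, and 2.88 with GA and 9.97 with DMSO in MCF10A.

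Among co-activators of the nuclear complex, 3 of 7 were at least 2-fold higher and 1 lower in NOTCH1-labelled cells, and 1 higher and 1 lower in MCF10A. CREBBP, a histone acetyltransferase, was higher in both lines, at 17.6 FPKM with GA and 7.49 with DMSO in NOTCH1-labelled cells, and 7.09 with GA and 3.51 with DMSO in MCF10A. MAML3, a Mastermind gene with its own row, was lower in both, at 1.79 FPKM with GA and 3.76 with DMSO in NOTCH1-labelled cells, and 0.969 with GA and 2.92 with DMSO in MCF10A. MAML2, its paralogue, which was higher in both, was at 2.91 FPKM with GA and 1.14 with DMSO in NOTCH1-labelled cells, and 1.73 with GA and 1.41 with DMSO in MCF10A. KAT2B, another acetyltransferase, was at 10.2 FPKM with GA and 4.0 with DMSO in NOTCH1-labelled cells, and 6.46 with GA and 8.64 with DMSO in MCF10A, where it was lower.

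Genes listed as co-repressors of RBPJ, whether or not RBPJ binds them directly, included 0 of 16 past 2-fold in NOTCH1-labelled cells. In MCF10A 3 were at least 2-fold higher and 2 lower. CIR1, a co-repressor that links RBPJ to histone deacetylase, was at 46.6 FPKM with GA and 25.1 with DMSO in NOTCH1-labelled cells, and at 38.7 with GA and 15.0 with DMSO in MCF10A. CTBP2 was at 23.0 FPKM with GA and 32.5 with DMSO in NOTCH1-labelled cells, and 16.1 with GA and 40.7 with DMSO in MCF10A. FHL1 had a log2 ratio of 0.82 in NOTCH1-labelled cells and 1.64 in MCF10A, and BEND6 had 0.50 in NOTCH1-labelled cells and 1.22 in MCF10A. The level of FHL1 was low, at 2.26 FPKM with GA and 1.28 with DMSO in NOTCH1-labelled cells. In MCF10A it was at 1.54 with GA and 0.494 with DMSO. BEND6 was at 5.62 FPKM with GA and 3.97 with DMSO in NOTCH1-labelled cells. In MCF10A BEND6 was at 7.57 with GA and 3.25 with DMSO. CIR1, FHL1 and BEND6 were thus higher in both lines.

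Endocytic and ubiquitin regulators included 0 of 12 at least 2-fold higher and 2 lower in NOTCH1-labelled cells, and 1 of 13 higher and 0 lower in MCF10A. NEDD4, a ubiquitin ligase, was at 211 FPKM in both NOTCH1-labelled groups, and at 208 with GA and 100.5 with DMSO in MCF10A. DTX4, of the Deltex family, was at 5.32 FPKM with GA and 14.3 with DMSO in NOTCH1-labelled cells, and 5.57 with GA and 8.38 with DMSO in MCF10A. DTX3, another Deltex gene, was at 0.920 FPKM with GA and 1.92 with DMSO in NOTCH1-labelled cells, and 3.78 with GA and 3.12 with DMSO in MCF10A. Of the genes that phosphorylate, degrade or spare the intracellular domain, 1 of 8 was at least 2-fold higher in NOTCH1-labelled cells and 0 of 8 were past 2-fold in MCF10A. That gene, MED13 of the Mediator kinase module, was at 30.0 FPKM with GA and 10.6 with DMSO in NOTCH1-labelled cells, and 10.2 with GA and 16.5 with DMSO in MCF10A. Of the receptors, NOTCH2 was at 7.0 FPKM with GA and 6.51 with DMSO in NOTCH1-labelled cells, and 3.95 with GA and 6.42 with DMSO in MCF10A, and NOTCH3 stayed under 0.6 FPKM in all groups.

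**Figure D5:**
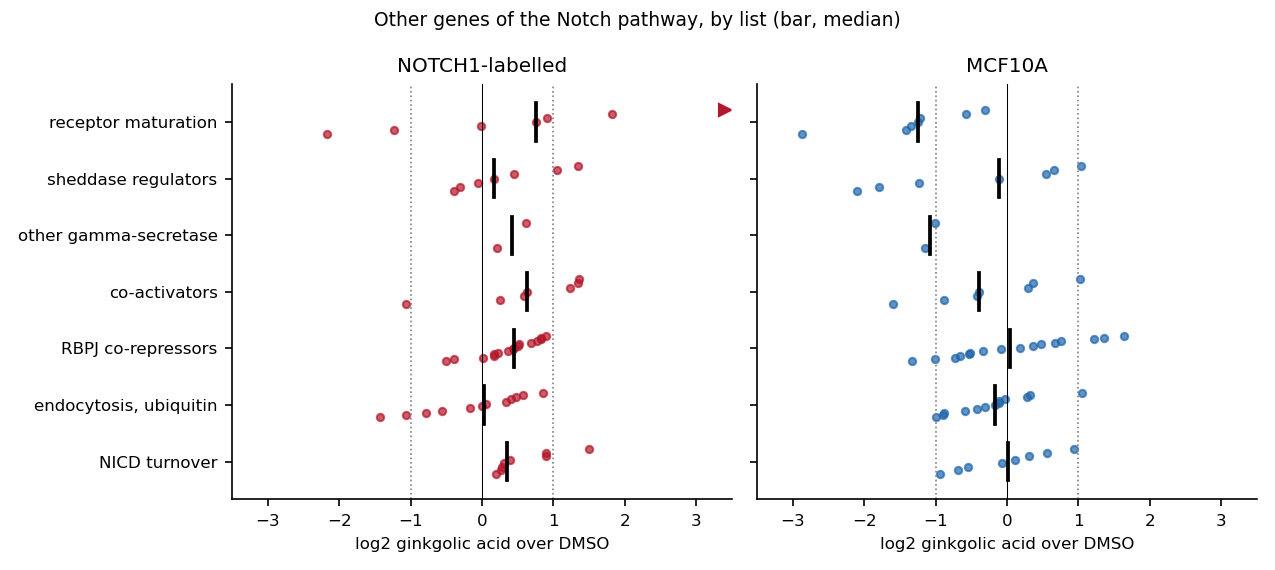
Log2 ratio of ginkgolic acid over DMSO (horizontal axis) of each gene (points) in 7 lists of other Notch pathway genes, in NOTCH1-labelled cells (left) and MCF10A (right), with list medians (bars) and 2-fold limits (dotted lines); the triangle marks POFUT1, which lies off the axis at 8.57. Medians of the NOTCH1-labelled line lie above 0 in all 7 lists (that of the endocytic regulators turns to −0.11 with the median of genes at 1 FPKM or more removed). In MCF10A those of receptor maturation and the other gamma-secretase subunits, the latter with only 2 genes, lie below −1. Over all genes at 1 FPKM or more in both groups the median was 0.14 in NOTCH1-labelled cells and −0.11 in MCF10A.

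As APH1A had the largest difference between the lines among the 8 genes, the pathway genes with the pair of log2 ratios nearest to its own were looked up by Euclidean distance over the 2 lines. They were B4GALT1, a galactosyltransferase, with log2 ratios of 0.92 in NOTCH1-labelled cells and −0.31 in MCF10A, NEDD4L, a ubiquitin ligase, with 0.85 in NOTCH1-labelled cells and −0.03 in MCF10A, and KAT2B with 1.35 in NOTCH1-labelled cells and −0.42 in MCF10A. The distance from APH1A was 0.091 for B4GALT1, 0.365 for NEDD4L and 0.455 for KAT2B. Opposite signs in the lines, the pattern of all 4 genes, were found in 42.2% of the 4906 genes at 10 FPKM or more in all 4 groups.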

How the data were processed

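RNA of 8 samples from established cell lines was isolated on RNeasy columns, and the labels' protocols name ScriptSeq Complete Gold for the libraries. Per the submitters' processing notes the tools were Cuffdiff 2.1.1, Cufflinks 2.1.1, TopHat2 2.0.8b and Bowtie2 2.1.0, with GRCh37 (hg19) as the build. The 2 deposited tables hold FPKM made by the authors, 1 value per gene and group. How samples were combined is not given in the sources used here.

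Unnamed and joined rows, rows outside the main chromosomes, loci under 200 bases, small RNA genes of GENCODE release 29 and repeated symbols were left out. Each log2 ratio divides ginkgolic acid by DMSO with no pseudocount, for genes with at least 1 FPKM in either group and above 0 in both. The planned limma test needs values per sample, so none was run. Positions are those of the tables' loci, which overlapping genes share. Computations used Python 3.11.15, numpy 2.4.6, pandas 2.3.3 and matplotlib 3.10.9. The calling step was run on simulated data without noise, which checks its arithmetic only. Named genes are the members, up to 4 genes past 2-fold per list, the other gamma-secretase subunits and receptors, and the 3 genes nearest to APH1A. Members and lists were chosen with earlier results of these data known, and the 10 FPKM level after seeing the data. 1 listed gene is not reported here. Other settings were a pseudocount of 1 FPKM, a stricter minimum of 5 FPKM, removed medians, means for medians and the joined row added.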

Additional observations from a re-analysis of the deposited data

Results flagged for a closer look

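Each gene here went opposite ways with ginkgolic acid in the lines, with log2 ratios at least 1 apart. The values are the log2 ratio in NOTCH1-labelled cells minus that in MCF10A, from 1 deposited value per group, and the differences were not tested. Among the genes described, APH1A had 1.29 and the joined row of LTC4S,MAML1 had 1.62. Of the other gamma-secretase subunits, PSENEN had 1.63 and APH1B 1.37. NOTCH1 had 2.19. POFUT1 had 9.90, RFNG 2.40 and B4GALT1 1.22. TSPAN14 had 2.58 and RHBDF2 2.27. KAT2B had 1.77 and MED13 2.19. DTX3 alone lay in the other direction, at −1.33, and was near 1 FPKM in NOTCH1-labelled cells. RHBDF2 was also low, at 0.658 FPKM with ginkgolic acid in MCF10A. Genes named from most lists had been chosen for ratios past 2-fold. Whatever the signs in the lines, 21.6% of all 15498 genes compared and 20.4% of the 4906 at 10 FPKM or more were past 1. Past −1 lay 22.5% of the 15498 and 3.75% of the 4906. The balance of directions depends on the shift between the lines. Of the 59 other pathway genes compared, 17 were past 1 and 2 past −1. With the median difference of 0.40 over genes at 1 FPKM or more removed, 9 were past 1 and 8 past −1.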

How the results depend on the processing

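No paired analysis was possible because the tables give 1 value per group, and leaving out replicates was not run for the same reason. With a pseudocount of 1 FPKM, 0 of the 8 genes were at least 2-fold lower in NOTCH1-labelled cells (PSEN2 at −0.99) and 0 at least 2-fold higher than in MCF10A with ginkgolic acid (NUMB at 0.96). Removal of the median of genes at 1 FPKM or more in both groups took FBXW7 in MCF10A to 0.10, the difference of the responses to −0.27 for NCSTN, −0.0065 for NUMB and 0.90 for APH1A (0 genes past 1), and NUMB across lines with ginkgolic acid to 0.69 (0 genes). Removal of the median of genes at 10 FPKM or more, added after seeing the data, took RBPJ and FBXW7 in MCF10A to 0.023 and 0.14. It took the median difference of the 8 genes to −0.0094, with ADAM10 at −0.0089, NCSTN at −0.35, RBPJ at −0.0026, NUMB at −0.085 and FBXW7 at −0.0099, and 0 genes past 1. APH1A across lines with ginkgolic acid turned to −0.044, and 0 genes were at least 2-fold higher there. Adding the joined row of LTC4S and MAML1 gave 1 gene lower in MCF10A, 2 past 1 in the difference and 1 lower across lines with DMSO. These changes follow from the shift removed, the pseudocount or the row added.

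For the other pathway genes, a minimum of 5 FPKM left 2 lower in NOTCH1-labelled cells and 1 past −1 in the difference, and a pseudocount left 2, 1, and 3 higher in MCF10A. Removing the 1 FPKM median gave 9 past 1 and 8 past −1 in the difference. By list, reversals were −0.34 for sheddase regulators, −0.020 for co-repressors and −0.099 for endocytic regulators in the difference, and −0.11 for endocytic regulators in NOTCH1-labelled cells, all with that median removed. The mean gave −0.11 for endocytic regulators in NOTCH1-labelled cells and −0.044 for turnover genes in MCF10A, and a minimum of 5 FPKM gave 0.36 for co-activators and −0.088 for co-repressors in MCF10A. That minimum moved the sheddase regulators from 0.17 to 1.05 in NOTCH1-labelled cells and from −0.11 to −1.51 in MCF10A. Their difference moved from 0.056 to 1.98, and to 0.75 with the mean. The difference of receptor maturation moved from 1.22 to 2.52 with the mean. Over all genes, a minimum of 5 FPKM gave 1929 higher and 919 lower in NOTCH1-labelled cells (3694 and 3685 at 1 FPKM), so 67.7% of called genes were higher beside 50.1%. In MCF10A it gave 1164 and 1568 (4302 and 2689 at 1 FPKM), 42.6% higher beside 61.5%. At 10 FPKM or more these counts were 795 and 246 in NOTCH1-labelled cells, 76.4% higher, and 341 and 525 in MCF10A, 39.4% higher. With the 1 FPKM median removed they were 3127 and 4238 in NOTCH1-labelled cells, 42.5% higher, and 4721 and 2324 in MCF10A, 67.0% higher. Depth is unknown, so counting error could not be given.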
